A study of Homo sapiens with 3 samples.

Results

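The genes of the MYC dimer network were examined in RNA sequencing of the human cell line MIAPaCa-2, which was established from a pancreatic carcinoma. The 10 members were MYC, MAX, MXD1, MXI1, MXD3, MXD4, MNT, MGA, MLX and FBXW7, and they were found by symbol among the 14949 genes listed in the deposited table. All 10 were listed. The study had 3 libraries, with 1 library in each group. sh-CTL cells carried a control short hairpin and received no drug. sh-METTL3 cells (METTL3-KD) carried a hairpin against METTL3, the methyltransferase that writes N6-methyladenosine into RNA, and also received no drug. sh-CTL + PLK1i cells carried the control hairpin and were exposed for 24 h to 80 nM NMS-P937, an inhibitor of PLK1, a kinase needed in mitosis. The labels say neither which hairpin sequence was used nor whether the lines were clonal. There were no replicates, so every difference given here is a difference between 2 libraries and has no p-value.

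MYC is a transcription factor that binds DNA only as a dimer with MAX, and its RNA and protein both turn over quickly. MAX also pairs with MXD1, MXI1, MXD3, MXD4, MNT and MGA, and these dimers occupy similar sites and mostly repress, the MXD proteins, MXI1 and MNT through the SIN3 corepressor. MLX pairs with MondoA (MLXIP) and ChREBP (MLXIPL) and links the network to glucose, while FBXW7 is the substrate receptor of an SCF ubiquitin ligase that marks MYC protein for degradation. MYC is often raised in pancreatic adenocarcinoma. Only RNA was measured here, not the proteins, and in a bulk culture fewer cells with a transcript cannot be told apart from less of it per cell.

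Dimers of the network bind the E-box CACGTG, which reads the same on both strands. Promoter windows from RefSeq (GRCh38.p14) that run from 250 bases before to 50 bases after a gene start were available for 9 of the 10 members, 17 windows in all. MYC was the member without a window, so its promoter was not searched. 3 of these windows, 1 each of MXD4, MNT and MLX, held CACGTG, against 7.26% of all 35116 windows of that length. The sites are shown because these 3 member genes carry in their own promoters the letters to which the network's dimers bind. Each is printed on the strand of its gene with the E-box in capitals, and its first E-box base lies 238, 193 and 50 bases before the start of MXD4, MNT and MLX.
MXD4, chr4:2262330-2262359, minus strand: gggccgggccacCACGTGctgttgctaagc
MNT, chr17:2401236-2401265, minus strand: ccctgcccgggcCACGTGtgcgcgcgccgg
MLX, chr17:42567038-42567067, plus strand: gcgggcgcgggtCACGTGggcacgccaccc
A match is a description of the letters, and binding was not measured.

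The listed genes held 37449329 reads in sh-CTL, against 46944898 in METTL3-KD and 47727518 with PLK1i, and the 10 members had between 322 and 10696 reads per library. METTL3 had 3378, 1781 and 4223 reads in that order, a log2 change of -1.25 in sh-METTL3. Of the epithelial markers, KRT8, KRT18, KRT19 and CLDN4 were listed and KRT7, EPCAM and CDH1 were not, while leukocyte, endothelial and fibroblast markers were either not listed or at no more than 106 reads.

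Normalized counts are reads divided by the size factor of each library that the deposited values carry. Levels between genes were compared as normalized count per kilobase of the canonical transcript. MYC stood highest among the members in every library, followed by MLX and MAX. The MYC level was 1873 per kilobase in sh-CTL, 1585 in METTL3-KD and 2646 with PLK1i. MLX followed at 1345, 1414 and 1315 per kilobase, and MAX at 950, 851 and 1025. With the union of all annotated exons as the length, the order of these 3 genes was kept in every library. MXD3 came next in each library at 522, 665 and 367 per kilobase, a place that rested on its short canonical transcript of 1067 bases. With the union of exons it had rank 7 after PLK1i and rank 5 in the other two libraries. MGA lay at 291 to 296 per kilobase. MXD1 was the lowest member in all 3 libraries by the canonical transcript, at 67.7 per kilobase in sh-CTL, while by the union of exons FBXW7 was lowest in sh-CTL and sh-METTL3 and MXD4 after PLK1i. MXI1 and FBXW7 lay close together above it in sh-CTL, at 126 and 118 per kilobase.

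**Figure D1:**
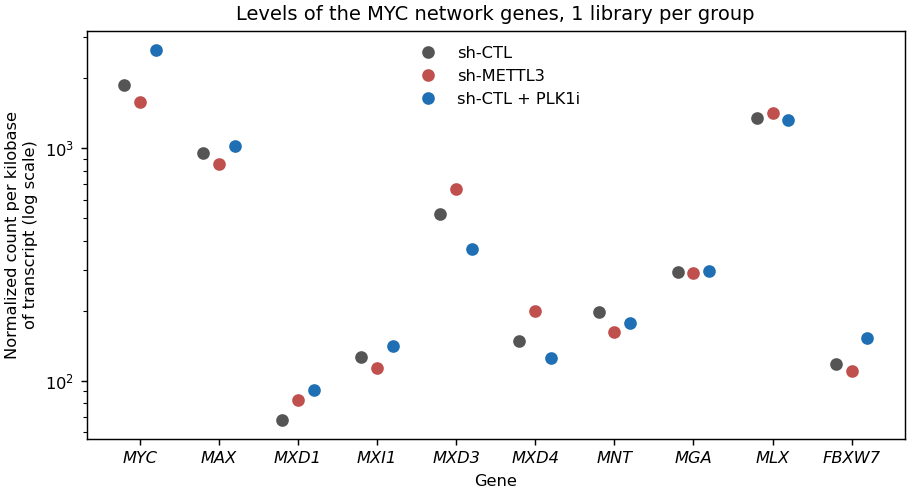
Normalized count per kilobase of canonical transcript (vertical log axis) of each MYC network gene (horizontal axis) in sh-CTL, sh-METTL3 and sh-CTL + PLK1i, 1 point per library and no error bar because each group held 1 library. MYC is the highest member in each library, at 1585 to 2646 per kilobase, and the 3 points of MGA lie between 291 and 296.

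A member was counted as changed where its log2 difference from the other library was 0.32 or more either way, taken as a difference of log2(normalized count + 1). The 95% intervals given with each change are exact Clopper-Pearson intervals of the read ratio. They cover counting error only, compare 2 libraries, and leave out the variation between cultures. In sh-METTL3 against sh-CTL, MXD4 and MXD3 rose and no member fell, against 15.8% of all listed genes that were higher and 14.5% that were lower at this threshold. In sh-CTL + PLK1i against sh-CTL, MYC, MXD1 and FBXW7 rose and MXD3 fell, against 10.2% of listed genes higher and 11.5% lower. The median change of the 10 members was -0.05 in sh-METTL3 and 0.06 after PLK1i, beside a median of 0.00 over all listed genes in each comparison. The sh-CTL library enters both comparisons, so a value that is high or low in it by chance moves both. In sh-METTL3 the interval lay above 0 for 3 members and below 0 for 3 members, where 27.1% and 28.2% of listed genes had such intervals. After PLK1i it lay above 0 for 4 and below 0 for 3, where the shares over listed genes were 23.1% and 22.8%.

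**Figure D2:**
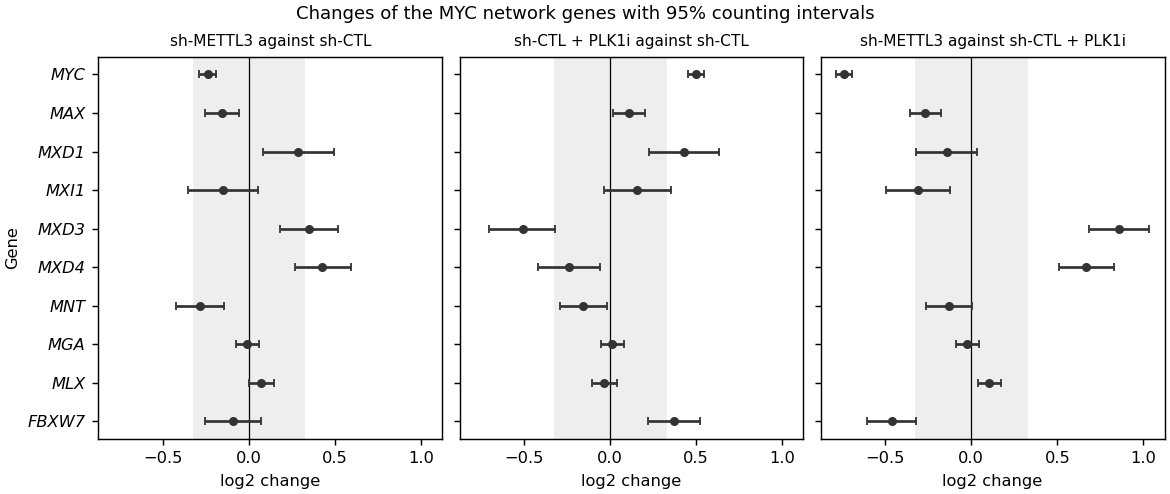
log2 change (horizontal axis) of each MYC network gene (vertical axis) in sh-METTL3 against sh-CTL, sh-CTL + PLK1i against sh-CTL and sh-METTL3 against sh-CTL + PLK1i. Points are the change between 2 libraries, bars are 95% counting intervals, and the grey band marks changes under the threshold of 0.32. MXD3 and MXD4 lie above 0 in the first panel and below 0 in the second, and MYC lies below 0 in the first and above 0 in the second.

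The third comparison set both perturbed libraries against each other without the shared control, and its values are the differences of the other two. MXD3 and MXD4 were higher and MYC and FBXW7 lower in sh-METTL3 than in sh-CTL + PLK1i, against 19.8% of listed genes higher and 18.2% lower. The log2 difference was 0.86 (0.68 to 1.03) for MXD3 and 0.67 (0.51 to 0.83) for MXD4. It was -0.74 (-0.78 to -0.69) for MYC and -0.46 (-0.61 to -0.32) for FBXW7. MXD3 had the largest difference among the members in this comparison, and 5.26% of all listed genes were at least as much higher.

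MYC (ENSG00000136997), the activator of the network, lies on chromosome 8 at 128747680 to 128755197 on the plus strand (GRCh37, as are the other gene positions). It had 5978 reads in sh-CTL, 6362 in METTL3-KD and 10696 with PLK1i, which is 6971, 5897 and 9847 as normalized counts. The drug-treated library was the highest and the METTL3-KD library the lowest. Expressed against sh-CTL, MYC reached 141% after PLK1i (log2 0.50, 0.45 to 0.54). In sh-METTL3 it was at 84.6% (log2 -0.24, -0.29 to -0.19), a difference beyond counting error but under the threshold. After PLK1i 5.21% of all listed genes rose at least as much as MYC, while in sh-METTL3 19.9% of genes were at least as far below their control as MYC. Genes of low expression scatter more widely, so the members were also set beside the genes of similar level. Among the 498 genes in the same expression bin, the 95th percentile of the change after PLK1i was 0.26, and MYC lay above it. In sh-METTL3 the 5th percentile of that bin was -0.45, and MYC lay within the band.

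**Figure D3:**
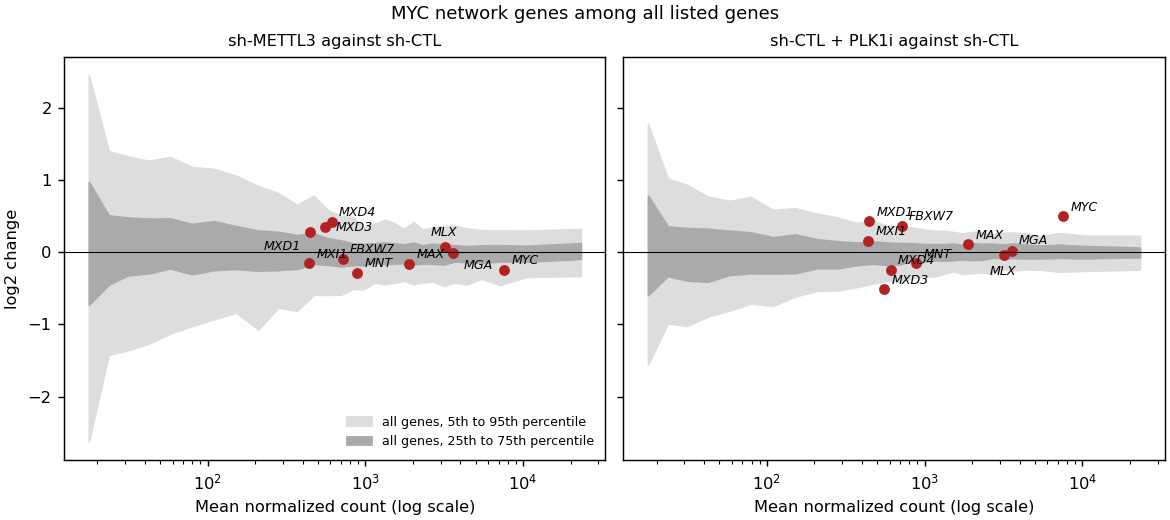
log2 change (vertical axis) against mean normalized count (horizontal log axis) in METTL3-KD and after PLK1i, each against sh-CTL. Red points are the 10 MYC network genes and grey bands give the 25th to 75th and the 5th to 95th percentile of all listed genes in 30 bins of mean count. All 10 members lie within the outer band in sh-METTL3, and after PLK1i MYC and FBXW7 lie above it and MXD3 below it.

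MAX (ENSG00000125952; chromosome 14, 65472892 to 65569413, minus strand), the common partner, had 1637, 1846 and 2238 reads in the 3 libraries, in the order sh-CTL, METTL3-KD and PLK1i. Its normalized counts of 1909, 1711 and 2060 were lowest in sh-METTL3 and highest after PLK1i. Neither change reached the threshold, with log2 -0.16 (-0.25 to -0.06) in sh-METTL3 and 0.11 (0.02 to 0.20) after PLK1i. The ratio of MYC to MAX per kilobase was 1.97 in sh-CTL, 1.86 in METTL3-KD and 2.58 with PLK1i. MAX overlaps FNTB on the opposite strand, whose changes were -0.16 and 0.07. Whether the counting used strand is not given in the sources used here, so reads of MAX and FNTB may not be told apart.

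The MXD genes and MXI1 encode repressors that compete with MYC for MAX, and they did not move as a block. MXD1 (ENSG00000059728; chromosome 2, 70124820 to 70170077, plus strand), which rises in many cells as they differentiate, had 322 reads in sh-CTL, 494 in METTL3-KD and 549 with PLK1i. It was lowest in the control. The change after PLK1i was 0.43 (0.23 to 0.63), a rise past the threshold, and in sh-METTL3 it was 0.29 (0.08 to 0.49), just under the threshold. MXD1 overlaps SNRNP27 on the same strand, which stood at -0.09 in sh-METTL3 and -0.04 after PLK1i, and the part of shared reads in the MXD1 values was not tested. MXI1 (ENSG00000119950; chromosome 10, 111967363 to 112047123, plus strand), a repressor of the same kind, had 375, 425 and 530 reads. Both of its intervals against sh-CTL included 0, at -0.15 (-0.35 to 0.05) and 0.16 (-0.04 to 0.35).

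MXD3 (ENSG00000213347; chromosome 5, 176728462 to 176739758, minus strand), the MXD gene known for its expression in dividing cells, had 478 reads in sh-CTL, 765 in METTL3-KD and 425 with PLK1i. As normalized counts these were 557, 709 and 391, so that sh-METTL3 was the highest and the drug-treated library the lowest. It rose by 0.35 (0.18 to 0.52) in sh-METTL3, and it was at 70.2% of sh-CTL after PLK1i, a log2 change of -0.51 (-0.70 to -0.32). The rise in sh-METTL3 was 0.29, under the threshold, once the trend of change with GC content and transcript length was removed, and the canonical transcript of MXD3 has 65.6% GC. MXD3 overlaps RAB24 on the same strand and PRELID1 on the opposite strand, so its reads may be shared with them. RAB24 changed by -0.39 in sh-METTL3 and 0.02 after PLK1i, and PRELID1 by 0.06 and -0.01. The part of this overlap in the MXD3 values was not tested.

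MXD4 (ENSG00000123933; chromosome 4, 2249159 to 2263836, minus strand), a member found in cells that have left the cycle, had 492, 832 and 527 reads in the same order. Its normalized counts were 574, 771 and 485, again highest in sh-METTL3. It rose by 0.43 (0.26 to 0.59) in sh-METTL3, and 11.7% of all listed genes rose as much. After PLK1i its value was -0.24 (-0.42 to -0.06), under the threshold. MXD4 overlaps no other listed gene, and with GC content and length taken into account the rise was 0.45.

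MNT (ENSG00000070444; chromosome 17, 2287367 to 2304398, minus strand), the repressor that most cells express throughout the cycle, had 837 reads in sh-CTL, 865 in METTL3-KD and 952 with PLK1i. Corrected for depth these were 976, 802 and 876, so the control was the highest. The differences of -0.28 (-0.42 to -0.14) and -0.16 (-0.29 to -0.02) were beyond counting error and under the threshold.

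The level of MYC was then set against the summed levels of MXD1, MXD3, MXD4, MXI1 and MNT, all per kilobase of canonical transcript. In sh-CTL MYC was at 1.76 times the sum of these 5 repressor genes (1.67 to 1.86, an approximate 95% interval of counting error). It was at 1.30 times the sum (1.23 to 1.36) in METTL3-KD and 2.93 times (2.79 to 3.08) with PLK1i. The order of the libraries was the same with the union of exons, at 2.56, 1.96 and 3.87. It was also the same without MXD3, at 3.47, 2.84 and 4.95. MYC alone, at 1873, 1585 and 2646 per kilobase, had this order too. A kept order therefore does not show how the repressor genes moved. By the canonical transcript, MXD3 made up 49.2% of the repressor sum in sh-CTL, 54.4% in sh-METTL3 and 40.7% after PLK1i. By the union of exons its shares were 26.3%, 30.3% and 19.8%, and after PLK1i MNT then had the largest share at 24.2%. The ratio compares RNA levels and does not give the amounts of dimers.

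The SIN3 corepressor, the histone deacetylase complex recruited by the MXD proteins and MNT, was represented by 14 genes, all listed. In sh-METTL3 1 of them, ING2, was higher at the threshold with a change of 0.47, and none was lower, where 15.8% and 14.5% of all listed genes were. After PLK1i none was higher and RBBP4, a histone-binding subunit, fell by 0.37, against 10.2% of all listed genes higher and 11.5% lower. The list medians were -0.00 and -0.04. SIN3A itself changed by 0.06 and -0.09, and HDAC1 by 0.04 and -0.18. All 14 genes had a mean normalized count of 200 or more. Among all such genes 9.19% were higher and 10.6% lower in sh-METTL3, and 4.67% and 5.67% after PLK1i. The listed genes of the MGA complex, MYC protein stability, MYC transcription and coactivator lists given below also had such means.

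MGA (ENSG00000174197; chromosome 15, 41913332 to 42065279, plus strand) joins MAX in a polycomb complex that silences germline genes. It had 3066, 3832 and 3918 reads, which came to 3575, 3552 and 3607 after correction for depth. The largest of its 3 differences was -0.02 (-0.09 to 0.04), and all 3 intervals included 0. Of 11 further genes of that complex, 1 was higher and 1 lower at the threshold in sh-METTL3, RING1 at 0.44 and CBX3 at -0.32, where 15.8% and 14.5% of all listed genes were higher and lower. After PLK1i RYBP was the only one past it, at 0.35, against 10.2% of all listed genes higher and 11.5% lower. Their medians were -0.06 and 0.06. None of 11 germline genes known as targets of the complex, DDX4 and DAZL among them, was listed in the table.

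MLX (ENSG00000108788; chromosome 17, 40719090 to 40725257, plus strand) had 2723 reads in sh-CTL, 3600 in METTL3-KD and 3370 with PLK1i. Its changes were 0.07 (-0.00 to 0.14) and -0.03 (-0.11 to 0.04), and both intervals included 0. MLX overlaps PSMC3IP on the opposite strand, which changed by -0.14 and 0.21. MLXIP, the gene of its partner MondoA, had 2906, 2798 and 3806 reads and fell by 0.39 (interval of the log2 change -0.46 to -0.31) in sh-METTL3, with 0.05 after PLK1i. MLXIPL, which encodes ChREBP, had 159, 128 and 187 reads, with changes of -0.64 (-0.99 to -0.30) and -0.11 (-0.42 to 0.21).

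Among known targets of the MondoA and MLX dimer, TXNIP and KLF10 were listed and ARRDC4 was not. TXNIP, an arrestin-like protein that limits glucose uptake, had 610 reads in sh-CTL, 2126 in METTL3-KD and 1979 with PLK1i. It was lowest in sh-CTL and rose by 1.47 (1.34 to 1.60) in sh-METTL3 and by 1.36 (1.23 to 1.49) after PLK1i. KLF10, a zinc finger repressor, had 1726, 1519 and 2887 reads. It fell by 0.52 (interval of the log2 change -0.62 to -0.42) in sh-METTL3 and rose by 0.40 (0.31 to 0.49) after PLK1i, so these 2 genes took different directions in sh-METTL3. Of the other MYC genes, MYCN was not listed, and MYCL had 43, 75 and 83 reads with changes of 0.46 (-0.09 to 1.05) and 0.60 (0.06 to 1.17).

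FBXW7 (ENSG00000109670; chromosome 4, 153241696 to 153457244, minus strand), the ligase subunit that recognises phosphorylated MYC, had 570 reads in sh-CTL, 673 in METTL3-KD and 934 with PLK1i. Its normalized counts of 665, 624 and 860 were highest in the drug-treated library, which was also the library with the most MYC RNA. A link between these levels was not tested. FBXW7 rose by 0.37 (0.22 to 0.52) after PLK1i. In sh-METTL3 the interval included 0, at -0.09 (-0.25 to 0.07). The other subunits of its ligase are SKP1, CUL1 and RBX1. The scaffold CUL1 fell by 0.39 (interval of the log2 change -0.44 to -0.34) in sh-METTL3 and stood at 0.13 after PLK1i, while SKP1 and RBX1 stayed within the threshold in both comparisons.

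Of 9 other substrates of FBXW7, the AP-1 factor JUN had 3025, 4814 and 7337 reads and rose by 0.34 (0.27 to 0.41) in sh-METTL3 and 0.94 after PLK1i. AURKA, a mitotic kinase, also rose after PLK1i, by 0.36, and MCL1 and CCNE1, a cyclin, stayed within the threshold in both comparisons. KLF5, a zinc finger factor, was the only one past it downward, at -0.33 (-0.84 to 0.18) in sh-METTL3 with 67, 67 and 102 reads. Over all listed genes 15.8% were higher and 14.5% lower in sh-METTL3, and 10.2% and 11.5% after PLK1i. The median of the 9 genes was 0.02 in sh-METTL3 and 0.20 after PLK1i. The substrates are degraded as proteins, which these RNA values do not show.

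Of 17 genes whose products stabilise or degrade MYC protein, 1 was higher and 2 lower in sh-METTL3, where 15.8% and 14.5% of all listed genes were, with a median of -0.08. PLK1, which is also the kinase inhibited in the third library, had 6910, 5638 and 9249 reads and fell by 0.62 (interval of the log2 change -0.68 to -0.57). USP28, the deubiquitinase that opposes FBXW7, was the other gene that fell, at -0.34 (-0.42 to -0.26). After PLK1i 2 genes of this list were higher and none lower, against 10.2% and 11.5% of all listed genes, with a median of 0.05. These were USP36, a deubiquitinase, at 0.45 (0.39 to 0.52) and AURKA, while PLK1 was at 0.08 (0.03 to 0.12).

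The list of regulators of MYC transcription and RNA stability had 12 of its 13 genes in the table. In sh-METTL3 the list had a median of -0.04, and IGF2BP2, a reader of N6-methyladenosine known to stabilise MYC RNA, was the only gene past the threshold, at -0.33 (-0.38 to -0.27). Its paralog IGF2BP3 was at -0.23 and IGF2BP1 was not listed. Over all listed genes 15.8% were higher and 14.5% lower in sh-METTL3, and 10.2% and 11.5% after PLK1i. After PLK1i the list median was -0.01, and the only gene of the list past the threshold was PVT1. This noncoding RNA gene lies next to MYC on chromosome 8. PVT1 had 680 reads in sh-CTL, 728 in METTL3-KD and 1285 with PLK1i. Its changes were 0.58 (0.44 to 0.71) after PLK1i and -0.23 (-0.39 to -0.08) in sh-METTL3, beside 0.50 and -0.24 for MYC. The 20 nearest genes at or above a mean of 50 normalized counts, 10 on each side of MYC, had a median of 0.03 after PLK1i and of -0.07 in sh-METTL3, with quartiles of -0.13 and 0.18 after PLK1i and of -0.25 and 0.10 in sh-METTL3. MYC lay outside the quartiles after PLK1i and within them in sh-METTL3.

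Genes that MYC is known to activate were followed in 5 lists, of which 71 of 72 distinct genes were in the table. At the threshold, 3 were higher and 5 lower in sh-METTL3, and 3 were higher and 2 lower after PLK1i. Over all listed genes 15.8% were higher and 14.5% lower in sh-METTL3 and 10.2% and 11.5% after PLK1i, and among genes with a mean of 200 or more these shares were 9.19% and 10.6%, and 4.67% and 5.67%. The medians of the activated targets were -0.03 and 0.05, beside 0.00 over all listed genes, with 41 of the 71 below 0 in sh-METTL3 and 43 above 0 after PLK1i. The 20 genes of ribosome biogenesis included none past the threshold in sh-METTL3 and 1 after PLK1i, NOP16 at 0.33. Their median was -0.05 in sh-METTL3, with 14 genes below 0. After PLK1i it was 0.11, with 17 genes above 0, and NOP58, a core protein of small nucleolar ribonucleoproteins, was at 0.31.

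Nucleotide and polyamine synthesis had medians of 0.01 and 0.06 over 15 genes. TYMS, thymidylate synthase, rose by 0.39 in sh-METTL3, while IMPDH1, an enzyme of guanine nucleotide synthesis, had 4989, 3291 and 6833 reads and fell by 0.93. ODC1, the first enzyme of polyamine synthesis, was at -0.30 and 0.29, within the threshold in both comparisons. SMS, spermine synthase, was at -0.32 in sh-METTL3, just past it, and at 0.21 after PLK1i.

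Glycolysis and amino acid supply had medians of -0.06 and -0.01 over 13 genes. HK2, hexokinase, had 1961, 4215 and 3240 reads and rose in both comparisons, by 0.77 (0.70 to 0.85) in sh-METTL3 and 0.38 (0.30 to 0.47) after PLK1i. The glucose transporter SLC2A1 was at -0.44 in sh-METTL3, past the threshold, and at 0.24 after PLK1i.

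The cell cycle targets had medians of -0.01 and -0.07 over 11 listed genes. CDK4 rose by 0.39 in sh-METTL3. After PLK1i CKS2 rose by 0.40 while CKS1B, which encodes the related small CDK-binding protein, was at -0.41 and E2F1 at -0.40. Translation and chaperone genes had medians of -0.01 in both comparisons over 12 genes, and TFAM, a mitochondrial transcription factor, was the only one past the threshold, at -0.49 in sh-METTL3.

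**Figure D4:**
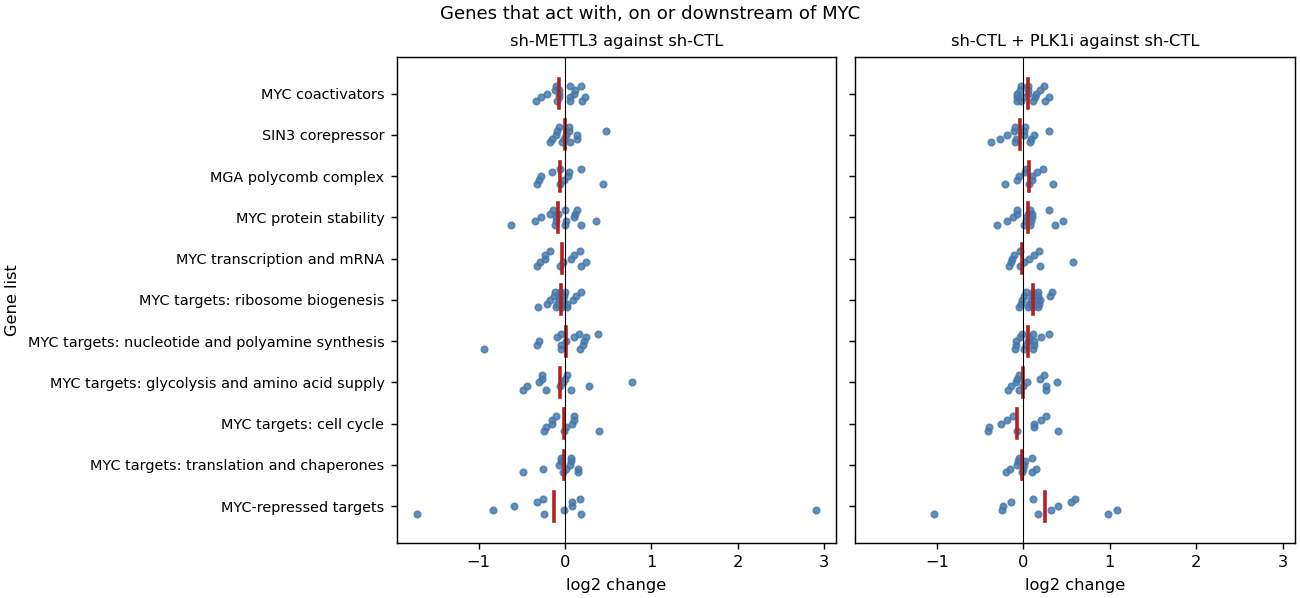
log2 change (horizontal axis) in METTL3-KD and after PLK1i, each against sh-CTL, of the genes in 11 lists around MYC (vertical axis). Each blue point is a gene, offset vertically for legibility, and red bars are list medians. The medians of the 5 lists of activated targets lie between -0.06 and 0.01 in sh-METTL3 and between -0.07 and 0.11 after PLK1i, and the repressed targets range from -1.71 to 2.90 in sh-METTL3.

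Of 14 genes that MYC is known to repress, 12 were listed. In sh-METTL3 1 was higher and 4 lower at the threshold, with a median of -0.13. After PLK1i 5 were higher and 1 lower, with a median of 0.25. The shares over all listed genes were 15.8% higher and 14.5% lower in sh-METTL3, and 10.2% and 11.5% after PLK1i. CDKN1A, an inhibitor of cyclin-dependent kinases, had 434 reads in sh-CTL, 166 in METTL3-KD and 832 with PLK1i. It fell by 1.71 (interval of the log2 change -1.98 to -1.46) in sh-METTL3 and rose by 0.60 (0.43 to 0.77) after PLK1i. GADD45A, a stress-response gene, had 1299, 920 and 3245 reads, with changes of -0.83 and 0.98. For both genes the drug-treated library was the highest and sh-METTL3 the lowest, which was also the order of MYC RNA. BTG1, NDRG1, CEBPA and KLF6 also had this order, though NDRG1, CEBPA and KLF6 each had an interval against sh-CTL that included 0. KLF4, CDKN1B, CDKN1C, BTG2, GADD45B and NDRG2 had another order. A link to MYC was not tested.

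KLF4, a zinc finger factor of epithelial differentiation, had 194 reads in sh-CTL, 1834 in METTL3-KD and 522 with PLK1i. Its changes of 2.90 (2.70 to 3.13) and 1.08 (0.85 to 1.33) were the largest rise of the list in each comparison. CDKN1C, another kinase inhibitor, had 85, 122 and 52 reads and a change of -1.03 after PLK1i, the only gene of the list past the threshold downward there. NDRG2, GADD45B and CDKN1B stood at -0.25, -0.24 and -0.14 after PLK1i, under the threshold with intervals below 0. In sh-METTL3 NDRG2 was past the threshold, at -0.59 (-0.82 to -0.36). BTG1, an antiproliferative gene, was at -0.33 in sh-METTL3 and 0.55 after PLK1i.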

How the data were processed

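Total RNA from 3 MIAPaCa-2 libraries was sequenced after stranded polyadenylated library preparation. The authors deposited 1 table of log2 values for 14949 genes. The submitters' processing notes name FastQC 0.11.9, STAR 2.7.10, RSEM 1.3.3 and hg19, and the normalization is not given in the sources used here. The deposited values followed log2(scaled reads + 4). After this was undone, 1 read came to 1.17 for sh-CTL, 0.927 with METTL3-KD and 0.921 with PLK1i, and 100% of values up to 2000 reads lay within 0.1 of a whole number, so reads were recovered by division. A log2(normalized count + 1) scale understates changes of low genes. With 1 library per group no test across genes was run. No gene was left out at a mean normalized count of at least 1.

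Each column name holds an abbreviation of 1 sample title, which gave the match, and groups came from sample titles. Positions and transcript lengths came from GENCODE 44 mapped to GRCh37, with the Ensembl canonical transcript and the union of exons as lengths. Symbols followed by a gene identifier were shortened to the symbol. The intervals and the recovery of reads were checked on simulated data. Amplified reads are not independent molecules, so intervals cover counting error only.

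The members and gene lists were chosen with earlier results of these data known. Named genes were the members, METTL3 and PLK1, the genes of each list with the largest rise and fall among those with a mean of at least 50, every gene of lists with few genes, and the 5 genes nearest to MYC in their pair of changes among those with a mean from 500 upward. SIN3A, BTG1, BTG2, NDRG1, CEBPA, KLF6, GADD45B, CDKN1B, IGF2BP1, DDX4 and DAZL are named outside this rule. So are the cell type markers and the genes that overlap members. All of these were chosen after their values were seen. A few genes that the rule selects are not reported here. Alternatives were other pseudocounts, scalings, filters and folds, a correction for GC content and length, and other lengths. Python 3.11.15, pandas 2.3.3, numpy 2.4.6, scipy 1.17.1 and matplotlib 3.10.9 were used.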

Additional observations from a re-analysis of the deposited data

How the results depend on the processing

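All 210 recomputed changes of single members stayed within the counting interval of the reported value, under the pseudocounts of 4 and 0.5, 3 other scalings, a minimum mean normalized count of 200, and the correction for GC content and length. Part of this was fixed in advance. The lowest member mean was 440, so the filter of 200 returned the same values. The median-of-ratios scaling differed from the deposited one by nearly the same ratio in each library, so it could hardly move them. The number of members past the fold depended on the fold chosen. At 1.5-fold no member was higher in sh-METTL3 (0 in place of 2), and after PLK1i 0 were higher in place of 3 and 0 lower in place of 1. Between both perturbed libraries 1 was lower at 1.5-fold in place of 2. Of all listed genes 7.76% were higher and 6.7% lower at 1.5-fold in sh-METTL3, and 3.97% and 4.01% after PLK1i. Those shares were 9.97% and 8.36% between both perturbed libraries. At 2-fold the count was 0 in each comparison and direction. The shares of all listed genes higher and lower at 2-fold were 3.42% and 2.94% in sh-METTL3 and 1.39% and 1.13% after PLK1i. Between both perturbed libraries they were 3.87% and 3.59%. With the trend of GC content and length removed, which was chosen after seeing the data, 1 member in place of 2 was higher in sh-METTL3, since MXD3 came to 0.29. This correction covered 12815 genes with a mean of at least 50, of which 12.6% were higher in sh-METTL3. The filter of 200 left 9.19% of 10782 genes higher and 10.6% lower in sh-METTL3, 4.67% and 5.67% after PLK1i, and 13% and 14.6% between both perturbed libraries. The GC and length correction left only ACTA2 of the 3 listed markers of other cell types, because the others had means under 50. In sh-METTL3 ACTA2 was at 0.17 after the correction and 0.22 before it, while the median of the 3 markers had been -0.11. Of 396 recomputed list medians, 383 moved by under 0.05 and 12 by more. The remaining 1, that of the other cell type markers in sh-METTL3, changed sign from -0.11 to 0.17 with this correction.

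No paired analysis was possible because each group held 1 library. No replicate was left out, since each group held only 1, and no interval here includes the variation between cultures.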

Other observations

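The genes whose pair of changes lay nearest to that of MYC, by distance on the log2 scale among the 9073 genes at or above a mean of 500 normalized counts, were SLC35F2, NUP42, RBM38, TNFRSF12A and the readthrough locus STAG3L5P-PVRIG2P-PILRB, at distances of 0.02 to 0.05. SLC35F2, a solute carrier, had 2187 reads in sh-CTL, 2350 in METTL3-KD and 3865 with PLK1i, with changes of -0.23 and 0.48. NUP42, a nuclear pore component, had 1319, 1436 and 2356 reads, and RBM38, an RNA-binding protein, had 1581, 1720 and 2797. TNFRSF12A, the receptor of the cytokine TWEAK, had 2687, 2783 and 4863 reads, with changes of -0.28 and 0.51. The 5 genes lie on chromosomes 7, 11, 16 and 20 and so away from MYC. With 3 libraries a pair of values sets the likeness, and any table of this size holds close pairs.

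Among the MYC coactivators all 17 genes were listed. EP400, a chromatin remodeller, was the only one past the log2 threshold of 0.32 against sh-CTL, at -0.34 (-0.39 to -0.28) in sh-METTL3. Of all listed genes 15.8% were higher and 14.5% lower in sh-METTL3, and 10.2% and 11.5% after PLK1i. SUPT5H, an elongation factor, stood at -0.28 in sh-METTL3 and 0.25 after PLK1i, and differed by -0.53 between both perturbed libraries. The list medians were -0.07 and 0.05. CREBBP, an acetyltransferase, was the highest of the list after PLK1i at 0.29.

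The epithelial keratins KRT8, KRT18 and KRT19 were at 0.26, 0.27 and 0.43 in sh-METTL3 and at -0.10, -0.09 and -0.06 after PLK1i, while CLDN4, a tight junction protein, was at -0.35 and 0.46. SREBF1, a lipid synthesis factor and FBXW7 substrate, was at 0.23 in sh-METTL3 and -0.28 after PLK1i.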
